A study of Homo sapiens with 18 samples.

Results

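The transcripts described here come from 9 genes that the transcription factor p53 is known to activate: MDM2, SESN1, ZMAT3, FDXR, RRM2B, TP53INP1, TP53I3, GDF15 and GADD45A. They were chosen by symbol with earlier results of these data known, so their shares set beside those of all genes are descriptions. All 9 are among the 17094 gene symbols present in both deposited tables (18978 symbols for H1299, 20335 for A549). The study knocked down the transcriptional coactivators YAP (gene YAP1) and TAZ (gene WWTR1) in 2 human lung carcinoma lines and sequenced poly(A) RNA, to compare what each paralogue does to the transcriptome. H1299 makes no p53 protein, and A549 has intact p53. H1299 and A549 cells each received 30 nM of a control siRNA (siControl), of a pool of siRNAs against YAP (siYAP) or of a pool against TAZ (siTAZ) for 48 h, and all 6 groups were without serum for the last 18 h. Each group had 3 libraries, 18 in all, and each line is a single established culture; H1299 grew in RPMI-1640 medium, whereas A549 was kept in DMEM. Line, medium, table and experiment therefore cannot be told apart in any comparison of A549 with H1299.

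The tumour suppressor p53 binds DNA as a tetramer and switches on genes that halt the cell cycle, repair DNA, adjust metabolism or kill the cell. Its level is held down by MDM2, a ubiquitin ligase that is itself a p53 target, so that the pair forms a negative feedback loop. Other members act downstream: GADD45A and TP53INP1 in growth arrest and stress signalling, SESN1 in restraining growth signalling and oxidative stress, FDXR and TP53I3 in redox metabolism, RRM2B in making deoxynucleotides, ZMAT3 in binding RNA, and GDF15 as a secreted stress cytokine. Most of these genes have p53-independent inputs too, and GDF15 and GADD45A in particular also respond to the ATF4 and CHOP stress pathway.

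Levels are counts per 1000000 assigned reads (CPM), scaled by the trimmed mean of M-values (TMM) over all 18 libraries, and differences are log2 fold changes ± standard error (SE) from the quasi-likelihood F test of edgeR, called at a Benjamini-Hochberg adjusted p below 0.05 over all genes tested. H1299 libraries held 16.8 to 20.8 M assigned reads and A549 libraries 10.7 to 45.0 M. The targeted transcripts were lower in their own groups: YAP1 lay at 71.2 to 76.8 CPM in H1299 siControl and at 10.7 to 17.8 CPM in H1299 siYAP, and WWTR1 at 210 to 253 CPM in H1299 siControl and at 26.7 to 75.8 CPM in H1299 siTAZ. Replicate 2 kept the most in both H1299 knockdown groups. In replicates 1, 2 and 3, YAP1 was at 11.8, 17.8 and 10.7 CPM under siYAP, and WWTR1 at 33.3, 75.8 and 26.7 CPM under siTAZ. In A549, YAP1 fell by 1.76 ± 0.09 on the log2 scale under siYAP (adjusted p = 9.10e-05) and WWTR1 fell by 1.62 ± 0.12 under siTAZ (adjusted p = 0.00218). The paralogue that was not targeted was never called, but it was not always level. Under siYAP, WWTR1 lay below every control in H1299 (-0.51 ± 0.26, adjusted p = 0.204) and in A549 (-0.16 ± 0.12). Under siTAZ, YAP1 lay above every control in H1299 (0.30 ± 0.13, adjusted p = 0.117) and overlapped the controls in A549 (0.04 ± 0.09). Of 5 epithelial markers, 4 were listed in H1299 (CDH1 was not) and summed to 293 to 450 CPM, and 5 were listed in A549 and summed to 3954 to 6669 CPM. Mesenchymal markers (3 of 3 listed) summed to 2200 to 3278 CPM in H1299 and to 545 to 806 CPM in A549, and leukocyte markers (3 of 5 listed) summed to at most 5.93 CPM in any library. CDKN2A, a gene that A549 is known to have lost, was not listed in the A549 table and lay at 82.4 to 99.8 CPM in H1299 siControl. In A549, replicate 3 of every group stood apart for most of the p53 targets, so the siControl line difference of each member is also given without replicate 3 of every group.

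To show where p53 could touch these genes, windows from 250 bases before to 50 bases after annotated start sites were taken from RefSeq (GRCh38.p14); 13 windows of 6 members were searched (MDM2, SESN1, ZMAT3, FDXR, TP53I3 and GDF15). The search was for the p53 full site, a run of 20 bases made of a pair of 10-base elements with no spacer, allowing 3 mismatches and requiring the core C and G of each element, on both strands. Such a run was in 5 of the 13 member windows, which belong to 4 genes, and in 1.12% of all 35116 windows of the same length. A pair of the 5 are overlapping MDM2 windows that hold the same run. The rule was settled after the windows had been looked at, so these matches are a description and show neither binding nor a cause. The matched 20 bases are in capitals, 5′ to 3′ along the gene's strand, with the neighbouring bases in lower case, so that a reader can see how the members differ in their match.
MDM2, chr12:68808918-68808947, plus strand, 2 mismatches, 94 bases before the internal start: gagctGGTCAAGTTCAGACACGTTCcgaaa
SESN1, chr6:109009013-109009042, minus strand, 3 mismatches, 49 bases before an internal start of the gene: cgtctGGACAAGTCTCCACAAGTCAgaaat
FDXR, chr17:74872991-74873020, minus strand, 3 mismatches, 21 bases before the RefSeq start: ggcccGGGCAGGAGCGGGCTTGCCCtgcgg
GDF15, chr19:18386181-18386207, plus strand, 3 mismatches, 29 bases after the RefSeq start, which is internal to the GENCODE gene: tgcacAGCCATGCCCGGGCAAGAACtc

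The MDM2 site lies in front of the internal promoter of that gene, which is the textbook example of a p53-responsive promoter. The 250 bases before that start follow, with every 10-base element that matched with at most 1 mismatch in capitals; 3 elements did, and the first 2 form the full site above.
MDM2 internal promoter, chr12:68808767-68809016, plus strand: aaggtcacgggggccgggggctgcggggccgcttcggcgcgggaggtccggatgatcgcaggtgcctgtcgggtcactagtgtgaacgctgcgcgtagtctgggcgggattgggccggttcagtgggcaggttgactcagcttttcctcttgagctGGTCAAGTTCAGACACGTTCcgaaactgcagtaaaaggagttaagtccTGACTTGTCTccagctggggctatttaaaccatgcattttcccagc
The motif GGAATG, the core bound by the TEAD proteins through which YAP and TAZ reach DNA, was searched on both strands as well. It occurred in 3 of the 13 member windows, 1 each of TP53I3, SESN1 and GDF15, and in 14.0% of all 35116 windows.

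Under siControl, the order of the 9 transcripts differed between the lines. On the scale of CPM per kb of exonic length (GENCODE release 29), GADD45A was the highest in H1299 at 33.0 ± 2.21 (SD, n = 3), followed by RRM2B at 12.5 ± 1.65. TP53I3 came next at 8.19 ± 0.60 CPM per kb, then FDXR at 6.27 ± 0.61 and TP53INP1 at 6.18 ± 0.51, which lay within their spread. SESN1 at 2.95 ± 0.30 and MDM2 at 2.83 ± 0.36 CPM per kb were also within their spread, ZMAT3 stood at 1.94 ± 0.20, and GDF15 was the lowest at 0.47 ± 0.03.

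In A549 under siControl, GDF15 was the highest at 140 ± 26.6 CPM per kb, followed by TP53I3 at 73.3 ± 16.9 and FDXR at 26.3 ± 2.30. GADD45A at 19.0 ± 5.91, RRM2B at 17.4 ± 3.49 and TP53INP1 at 13.6 ± 3.60 CPM per kb overlapped within their spread. MDM2 lay at 9.58 ± 2.31, and SESN1 at 5.00 ± 0.76 and ZMAT3 at 4.69 ± 1.85 closed the order, within their spread of each other. GDF15 thus went from the lowest of the 9 in the p53-null line to the highest in the line with p53, and GADD45A from the highest to a middle place.

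Of the 9 transcripts, 8 were higher in A549 than in H1299 and 1, GADD45A, was lower under siControl, against 37% of 15816 tested genes called higher and 37.7% called lower. The median log2 difference of the 9 was 1.26, and that of all genes tested was -0.02 with a median absolute size of 0.80. The same 8 were called higher under siYAP and under siTAZ, where 37.3% and 37.2% of genes were called higher. For those 8, all 9 A549 libraries lay above all 9 H1299 libraries, which held for 28.8% of genes; for none of the 9 did all lie below, which held for 27.8%. In bulk RNA, a different share of cells making a transcript and a different amount per cell cannot be told apart.

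**Figure D1:**
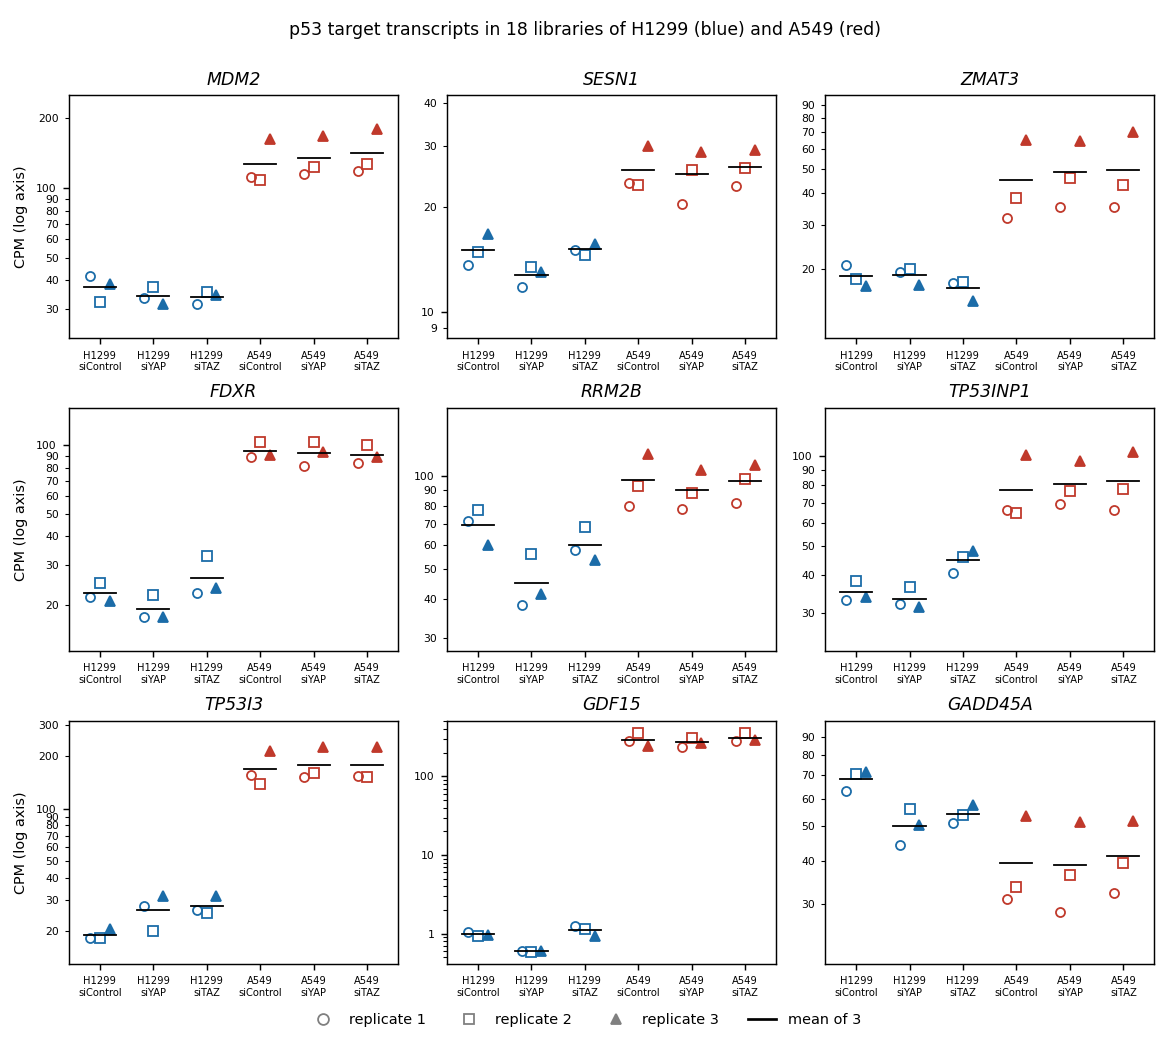
Level of each transcript (CPM, log axis, own range per panel) in the 18 libraries by group, with H1299 in blue, A549 in red, the replicate number as the marker shape and a line at the mean of 3. GDF15 runs from about 1 CPM in H1299 to 236.6 to 361 CPM in A549, GADD45A is the only panel in which H1299 reaches higher, and the filled triangles of replicate 3 are the highest A549 points in 7 panels.

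MDM2 (chromosome 12, 68808176 to 68850686), the feedback inhibitor, stood at 41.9, 32.4 and 38.5 CPM in the H1299 siControl libraries and at 111, 108 and 163 CPM in the A549 ones. The A549 libraries were all above, with replicate 3 the highest. The difference was 1.76 ± 0.18 (log2, a 3.38-fold level, adjusted p = 7.49e-08), and 1.56 ± 0.12 without replicate 3 of every group. Under siYAP it was 1.98 ± 0.18 and under siTAZ 2.06 ± 0.18. MDM2 is overlapped by 4 other genes, among them CPM on the opposite strand, and reads of the pairs cannot be told apart without strand.

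GDF15 (chromosome 19, 18374731 to 18389176), the secreted cytokine, had the largest difference of the 9. It stood at 1.05, 0.93 and 0.97 CPM in H1299 siControl, from 17 to 20 reads per library, and at 283, 353 and 243 CPM in A549 siControl. The difference of 8.21 ± 0.20 (log2) is a 296.1-fold level (adjusted p = 1.66e-16), and was 8.32 ± 0.23 without replicate 3 of every group. Under siYAP it was 8.82 ± 0.20 and under siTAZ 8.12 ± 0.19. Its H1299 values rest on 12 to 25 reads per library, so small changes within H1299 are loosely measured.

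The redox genes TP53I3 and FDXR followed in size. TP53I3 (chromosome 2, 24077433 to 24085861), a quinone oxidoreductase, stood at 18.1, 18.2 and 20.5 CPM in H1299 siControl and at 156, 139 and 213 CPM in A549 siControl. Every A549 library was several times above every H1299 one, with a difference of 3.16 ± 0.22 (log2, adjusted p = 2.84e-10) that was 3.02 ± 0.14 without replicate 3 of every group. FDXR (chromosome 17, 74862497 to 74873031), the mitochondrial reductase that feeds electrons to ferredoxin, stood at 21.7, 25.0 and 20.9 CPM against 88.8, 104 and 91.1 CPM. The replicates of FDXR lay close together in both lines, and the difference was 2.07 ± 0.14 (adjusted p = 2.62e-10), or 2.05 ± 0.18 without replicate 3. SESN1 (chromosome 6, 108986437 to 109094819), a sestrin, stood at 13.7, 14.9 and 16.7 CPM against 23.5, 23.2 and 30.1 CPM. The SESN1 difference was 0.75 ± 0.13 (adjusted p = 6.37e-05), or 0.71 ± 0.13 without replicate 3 (adjusted p = 0.000310). TP53I3 overlaps FAM228B and SESN1 overlaps an antisense RNA on the opposite strand, and the same limit on strand applies.

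ZMAT3 (chromosome 3, 179017223 to 179072279), the RNA-binding member, stood at 20.8, 18.2 and 17.1 CPM in H1299 siControl and at 31.9, 38.2 and 65.5 CPM in A549 siControl. Replicate 3 of A549 was far above the other A549 libraries, and the difference of 1.26 ± 0.26 (log2, adjusted p = 0.000299) became 0.86 ± 0.15 without replicate 3 of every group (adjusted p = 0.000137). TP53INP1 (chromosome 8, 94925972 to 94949411), a stress-induced regulator of autophagy and cell death, stood at 33.0, 38.4 and 33.8 CPM against 66.2, 64.4 and 101 CPM. Its difference was 1.13 ± 0.17 (adjusted p = 1.23e-05) and 0.87 ± 0.12 without replicate 3 (adjusted p = 1.52e-05). Both stayed called in this smaller set of libraries. TP53INP1 overlaps NDUFAF6 on the opposite strand.

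RRM2B (chromosome 8, 102204502 to 102239118), the p53-inducible small subunit of ribonucleotide reductase, differed least. It stood at 71.4, 77.8 and 59.7 CPM in H1299 siControl and at 79.9, 92.3 and 118 CPM in A549 siControl, a difference of 0.47 ± 0.17 (log2, adjusted p = 0.0157). The H1299 and A549 libraries came close without overlapping. The call was lost without H1299 siControl replicate 3 (0.37, adjusted p = 0.0803), without A549 siControl replicate 3 (0.31, adjusted p = 0.105) and without replicate 3 of every group (0.21, adjusted p = 0.249). Under siYAP the difference was 1.00 ± 0.17 (adjusted p = 3.26e-05) and under siTAZ 0.68 ± 0.17 (adjusted p = 0.00122).

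GADD45A (chromosome 1, 67685061 to 67688338), a stress sensor that acts on cell-cycle and kinase signalling, went the other way. It stood at 63.0, 70.7 and 71.2 CPM in H1299 siControl and at 31.0, 33.7 and 53.4 CPM in A549 siControl, with all A549 libraries below. GADD45A was lower in A549 by a log2 difference of -0.80 ± 0.21 (adjusted p = 0.00183), and -1.04 ± 0.14 without replicate 3 of every group (adjusted p = 1.60e-05). Without replicate 2 of every group it was -0.67 (adjusted p = 0.0689). Under siYAP the difference was -0.37 ± 0.21 (adjusted p = 0.115) and under siTAZ -0.40 ± 0.20 (adjusted p = 0.0876), and there the lines overlapped. Both passed with the replicate number as a block, at -0.40 (adjusted p = 1.09e-05) and -0.42 (adjusted p = 3.65e-06), where 41.3% and 40.9% of genes were called lower. The numbers do not pair libraries across lines, so here the block takes replicate spread out of the error of each line's mean. Its adjusted p is therefore too small to be read for a line difference. Both differences were also called without replicate 3 of every group, at -0.61 (adjusted p = 0.00176) and -0.55 (adjusted p = 0.00326). Leaving out A549 siYAP replicate 3 alone gave -0.61 under siYAP (adjusted p = 0.0122); leaving out A549 siTAZ replicate 3 gave -0.59 (adjusted p = 0.0179) and A549 siControl replicate 3 gave -0.39 (adjusted p = 0.0464) under siTAZ.

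The size of these differences moved with how the lines were put on a common scale, since the choice shifts every gene alike. Plain library size moved the median of all genes to -0.24 under siControl, with 4734 genes called higher and 7095 lower. Scaling to 80 genes picked by ribosomal protein symbol moved it to -0.50, with 3322 higher and 8030 lower. On the TMM scale 5852 were higher and 5958 lower. The symbol pattern also admits ribosomal-protein-like genes such as RPS27L, one of the further p53 targets described below. MDM2, ZMAT3, FDXR, TP53INP1, TP53I3 and GDF15 remained called higher under siControl on both other scales, and GADD45A remained called lower. RRM2B was not called with plain library size (0.24, adjusted p = 0.190) nor with the ribosomal scale (0.01, adjusted p = 0.979), and SESN1 was not called with the latter (0.28, adjusted p = 0.132). Under siTAZ the ribosomal scale also ended the calls of SESN1 (0.10, adjusted p = 0.576), RRM2B (0.01, adjusted p = 0.962) and TP53INP1 (0.20, adjusted p = 0.348). GADD45A gained a call on both scales: under siYAP at -0.64 with plain library size (adjusted p = 0.00776) and -0.90 with the ribosomal scale (adjusted p = 0.00106), and under siTAZ at -0.70 (adjusted p = 0.00364) and -1.08 (adjusted p = 0.000171).

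Among 40 further p53 targets from a list of textbook targets, 34 could be tested between the lines. Of these, 25 were higher in A549 under siControl, 3 were lower and the median log2 difference was 1.11. RPS27L, which encodes a ribosomal-protein-like p53 modulator, was higher by 3.64 ± 0.13 (log2, adjusted p = 3.09e-14), and CYFIP2, a cytoplasmic p53-induced protein, by 3.83 ± 0.15 (adjusted p = 9.41e-14). CDKN1A, the gene of the cell-cycle inhibitor p21, was higher by 1.42 ± 0.36 (adjusted p = 0.00178), and by 0.83 ± 0.14 without replicate 3 of every group (adjusted p = 9.01e-05). BAX, the gene of a pore-forming cell-death protein, was higher by 2.14 ± 0.10 (adjusted p = 9.03e-13). The BH3-only genes differed less, with BBC3 at 0.58 ± 0.16 and PMAIP1 at 0.32 ± 0.12. The 3 lower genes were PLK3 (-1.32 ± 0.18), PIDD1 (-0.66 ± 0.13) and CCNG1 (-0.44 ± 0.14). In 20 of the 34, all 9 A549 libraries lay above all 9 H1299 libraries, and in 1 all lay below. PHLDA3, SPATA18, EDA2R and TRIM22 were not listed in the H1299 table, so no fold is given; in A549 siControl they stood at means of 130, 39.2, 61.5 and 10.8 CPM.

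**Figure D2:**
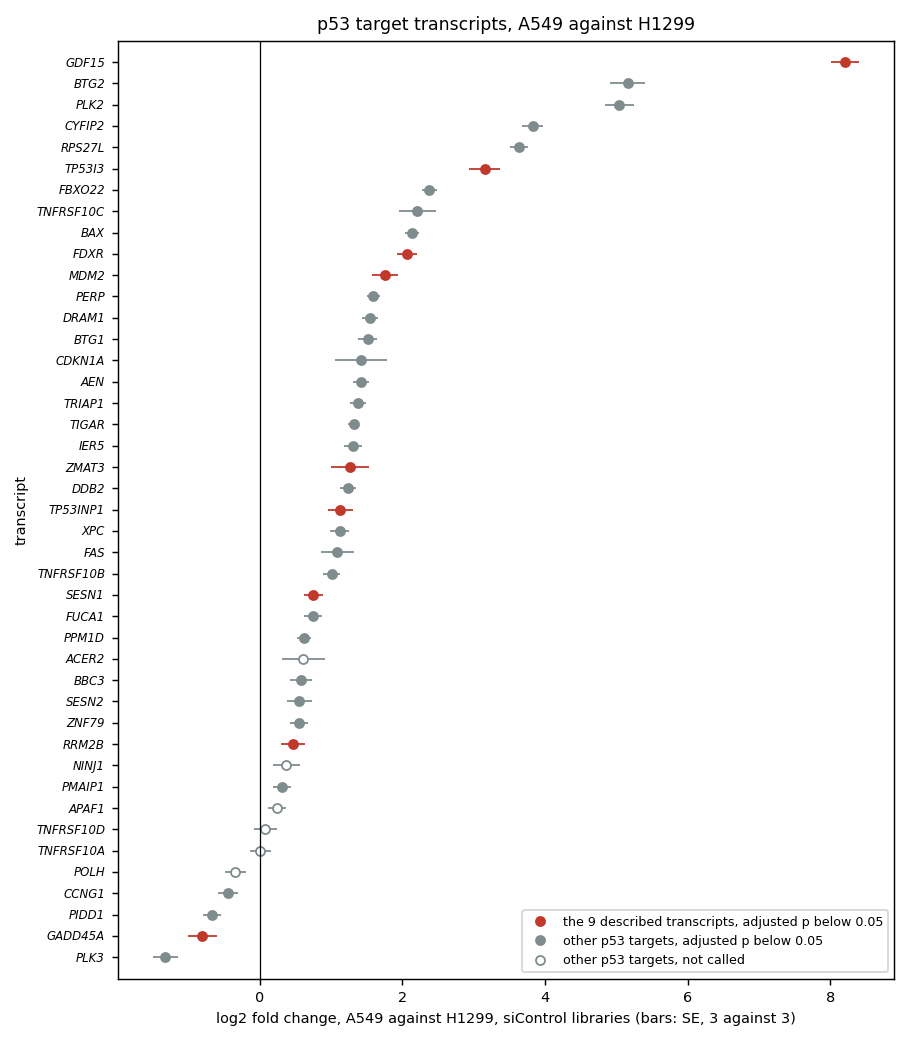
Log2 difference between A549 and H1299 siControl libraries (± SE, 3 against 3) for the 9 transcripts in red and the 34 other p53 targets in grey, ordered by size; filled points have an adjusted p below 0.05. GDF15 stands at 8.21, and GADD45A at -0.80 is among the lowest of the list with PLK3 at -1.32.

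Other gene groups under siControl are read against the same shares of all genes, 37% called higher and 37.7% called lower. Among 17 tested regulators of p53, 2 were higher in A549 and 9 lower: EP300, a p53 acetyltransferase, was higher by 1.42 ± 0.09 (log2, adjusted p = 5.64e-11), and the paralogue TP73 was lower at -4.41 ± 0.21 (adjusted p = 2.32e-12). Among 16 cell-cycle genes that p53 lowers through p21 and the DREAM complex, 13 were lower in A549 and 0 higher (median -1.39). CDC25A, a phosphatase that drives entry into S phase, stood at -2.71 ± 0.16 (adjusted p = 2.65e-11). The line difference of this group was smaller under the knockdowns. Under siYAP 7 were lower and 1 higher (median -0.51), and under siTAZ 8 were lower and 1 higher (median -0.78). There 37.4% and 37.2% of all genes were called lower. All 16 were lowest in replicate 3 of every A549 group, and their values without it are not given. Among 15 genes of the ATF4 and CHOP stress pathway, which can also raise GDF15 and GADD45A, 13 were higher in A549 and 1, ASNS, was lower (-0.68 ± 0.26, adjusted p = 0.0251). SLC7A11, the cystine transporter, was higher there by 5.60 ± 0.20 (adjusted p = 2.67e-14) and TRIB3, a pseudokinase, by 3.87 ± 0.15 (adjusted p = 9.27e-14). The part of this group in the GDF15 difference was not tested.

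In H1299, which has no p53, knockdown of YAP changed 3 of the 9 transcripts, 2 down and 1 up, where 16.6% of 15775 genes were called (7.89% higher and 8.75% lower). The median log2 fold change of the 9 was -0.23, and that of all genes was 0.01. RRM2B stood at 71.4, 77.8 and 59.7 CPM under siControl and at 38.2, 56.1 and 41.5 CPM under siYAP. All siYAP libraries lay below the controls, and RRM2B fell by 0.62 ± 0.14 (log2, 1.53-fold, adjusted p = 0.0121). GADD45A stood at 63.0, 70.7 and 71.2 CPM under siControl and at 44.2, 55.9 and 50.3 CPM under siYAP, again without overlap. It fell by 0.44 ± 0.10 (adjusted p = 0.00975). TP53I3 rose by 0.49 ± 0.15 (adjusted p = 0.0385), from 18.1, 18.2 and 20.5 CPM to 27.5, 19.9 and 31.8 CPM, and siYAP replicate 2 lay within the range of the controls.

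These calls rest on few libraries. RRM2B lost its call without H1299 siYAP replicate 1 (-0.52, adjusted p = 0.0577) or replicate 3 (-0.55, adjusted p = 0.0642). TP53I3 lost it without any single siControl library (0.45, 0.45 and 0.54 without replicates 1, 2 and 3) and without siYAP replicate 1 (0.45) or 3 (0.34), where the adjusted p reached 0.185. GADD45A kept it when any single library was left out.

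The other 6 did not pass the test under siYAP in H1299. GDF15 stood at 0.60, 0.58 and 0.61 CPM against 1.05, 0.93 and 0.97 CPM in the controls, with no overlap, and its value was -0.72 ± 0.27 (log2, adjusted p = 0.0830) from 12 to 14 reads per siYAP library. SESN1 also lay below every control, at -0.24 ± 0.11 (adjusted p = 0.160). MDM2 was at -0.13 ± 0.11, FDXR at -0.23 ± 0.15, TP53INP1 at -0.07 ± 0.10 and ZMAT3 at 0.02 ± 0.11, all with overlapping libraries.

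Knockdown of TAZ in H1299 also changed 3 of the 9, 2 up and 1 down, where 23.3% of genes were called (10.9% higher and 12.4% lower). It shares its control libraries with the siYAP comparison. TP53I3 stood at 26.4, 25.3 and 31.4 CPM under siTAZ, above every control, and rose by 0.54 ± 0.15 (log2, adjusted p = 0.0182). TP53INP1 stood at 40.7, 46.0 and 48.2 CPM against 33.0, 38.4 and 33.8 CPM in the controls. The groups did not overlap and TP53INP1 rose by 0.35 ± 0.10 (adjusted p = 0.0219). GADD45A stood at 51.1, 54.0 and 57.5 CPM, below every control, and fell by 0.34 ± 0.10 (adjusted p = 0.0254).

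The remaining members were not called under siTAZ. RRM2B was at -0.22 ± 0.14 (log2, adjusted p = 0.282), and with the replicate number as a block at -0.22 (adjusted p = 0.0475), which passes; the block called 35.5% of genes. FDXR was at 0.22 ± 0.15, GDF15 at 0.17 ± 0.24, ZMAT3 at -0.17 ± 0.11, MDM2 at -0.15 ± 0.11 and SESN1 at 0.00 ± 0.11. Single libraries again decided the calls: TP53I3 was lost without siControl replicate 1 (0.52) or siTAZ replicate 3 (0.46), TP53INP1 without siControl replicate 1 (0.32) or 3 (0.33) or siTAZ replicate 3 (0.32), and GADD45A without siControl replicate 2 (-0.32) or 3 (-0.31) or siTAZ replicate 1 (-0.30) or 3 (-0.37). GADD45A was also not called with plain library size (-0.27, adjusted p = 0.0752).

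Set directly against each other in H1299, siYAP and siTAZ differed in 2 of the 9, both lower under siYAP, where 11.7% of genes were called and 6.1% were lower. TP53INP1 was lower by a log2 difference of -0.42 ± 0.10 (adjusted p = 0.0156) and GDF15 by -0.88 ± 0.26 (adjusted p = 0.0422). GDF15 stood at 1.25, 1.15 and 0.93 CPM under siTAZ, from 20 to 25 reads per library, and its call was lost when any library but siControl replicate 2 was left out (adjusted p from 0.0573 to 0.136). TP53INP1 lost its call without siTAZ replicate 3 (-0.38), siYAP replicate 1 (-0.41) or siYAP replicate 3 (-0.39). With the replicate number as a block FDXR (-0.44, adjusted p = 0.00245) and RRM2B (-0.40, adjusted p = 0.00356) were called too, 4 in all, where 21.5% of genes were called. Both were also called without siYAP replicate 2, FDXR at -0.58 and RRM2B at -0.59, and FDXR without siTAZ replicate 1 at -0.56.

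**Figure D3:**
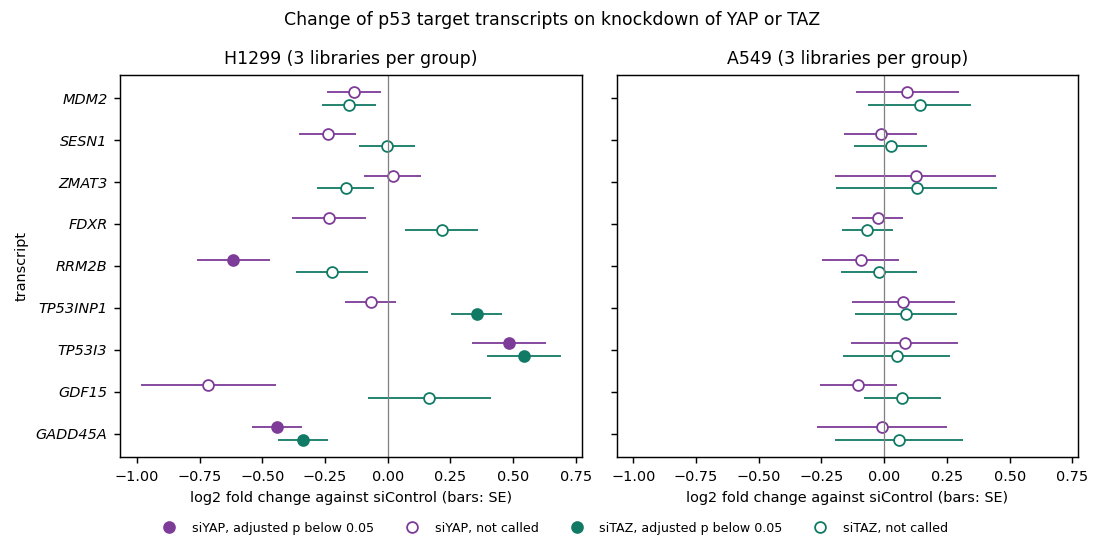
Log2 fold change (± SE) of each transcript under siYAP (purple) and siTAZ (green) against siControl in H1299 (left) and A549 (right), 3 libraries per group; filled points have an adjusted p below 0.05. In H1299 the points run from -0.72 to 0.54 with 3 called per knockdown, and in A549 from -0.10 to 0.14 with 0 called.

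In A549, which has p53, none of the 9 transcripts was called under siYAP, under siTAZ or between them by edgeR, where 0.00625%, 0.00625% and 0.0125% of 16008 genes were called. The calls were YAP1 under siYAP and WWTR1 under siTAZ. No member had an unadjusted p below 0.05 (0 of 9 in each comparison, against 410, 701 and 558 genes), and DESeq2 called 0 members as well (6, 52 and 19 genes). The log2 values ran from -0.10 to 0.12 under siYAP, from -0.07 to 0.14 under siTAZ and from -0.18 to 0.04 between them. MDM2 stood at 111, 108 and 163 CPM under siControl, at 115, 123 and 167 CPM under siYAP and at 119, 127 and 179 CPM under siTAZ. Each replicate number had a similar level in all 3 groups, and the spread between numbers exceeded that between siRNAs.

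Taking the replicate number as a block removed much of that spread, and 5.68%, 13.3% and 7.04% of A549 genes were then called. Of the 9, MDM2 was called under siTAZ at 0.15 ± 0.04 (log2, adjusted p = 0.0137), and the authors' deposited table gives it 0.14 with an adjusted p of 0.0864. GDF15 was called between siYAP and siTAZ with the block, at -0.17 ± 0.05 (adjusted p = 0.0144). It stood at 237, 312 and 268 CPM under siYAP and at 285, 361 and 287 CPM under siTAZ, lower under siYAP in each of the 3 numbers. TP53I3 under the block was at 0.09 ± 0.04 (siYAP) and 0.05 ± 0.04 (siTAZ), GADD45A at 0.01 ± 0.06 and 0.08 ± 0.06, and RRM2B at -0.09 ± 0.05 and -0.01 ± 0.05, none of them called.

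Whether the knockdown effects themselves differed between the lines was tested as an interaction, the A549 effect minus the H1299 effect. None of the 9 was called by edgeR without a block, where 0.0822% of genes were called for siYAP and 0.379% for siTAZ; 1 member (RRM2B, siYAP) and 0 members (siTAZ) had an unadjusted p below 0.05, and DESeq2 called 130 and 314 genes. With the replicate number as a block in each line 10.8% and 17.7% of genes were called. For siYAP the block called 3 members: RRM2B at 0.54 (log2, adjusted p = 0.00148), GADD45A at 0.44 (adjusted p = 0.00456) and TP53I3 at -0.39 (adjusted p = 0.0217). For siTAZ it called 4: GADD45A at 0.42 (adjusted p = 0.00452), TP53I3 at -0.49 (adjusted p = 0.00407), ZMAT3 at 0.31 (adjusted p = 0.0393) and FDXR at -0.27 (adjusted p = 0.0427). A positive value means that the transcript was lowered less, or raised more, in A549 than in H1299.

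Of 34 other p53 targets tested in H1299, 2 rose and 5 fell under siYAP, where 7.89% of all genes rose and 8.75% fell, and their median log2 fold change was -0.08. Under siTAZ 5 rose and 8 fell, where 10.9% of all genes rose and 12.4% fell, and the median was 0.03. The siYAP count is near the 16.6% of all genes called in either direction. PMAIP1, the gene of the BH3-only protein NOXA, fell by 1.31 ± 0.13 under siYAP (adjusted p = 0.000205) and was at -0.04 ± 0.13 under siTAZ. CDKN1A stood at 223, 182 and 154 CPM under siControl and at 111, 131 and 103 CPM under siYAP, and fell by 0.69 ± 0.13 (adjusted p = 0.00406); without replicate 3 of every group its value was -0.74 ± 0.14 (adjusted p = 0.0693). Under siTAZ it was at -0.25 ± 0.13 (adjusted p = 0.180). FUCA1, a lysosomal fucosidase, rose under both, by 0.35 ± 0.10 (adjusted p = 0.0294) and 0.62 ± 0.10 (adjusted p = 0.00129), and CYFIP2 by 0.46 ± 0.14 (adjusted p = 0.0371) and 0.53 ± 0.14 (adjusted p = 0.0154). AEN, an exonuclease, and APAF1, the apoptosome scaffold, fell under siTAZ, by 0.67 ± 0.12 and 0.56 ± 0.13. In A549, 0 of 38 were called in either knockdown by edgeR, but only 0.00625% of all A549 genes were called in each. For the line difference in effect, 1 of the 34 was called per siRNA, where 0.0822% (siYAP) and 0.379% (siTAZ) of genes were called. These were PMAIP1 for siYAP (1.08 ± 0.18, adjusted p = 0.0255) and AEN for siTAZ (0.79 ± 0.16, adjusted p = 0.0396), by edgeR without a block.

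Against the same shares, most cell-cycle genes were called in H1299: 15 of 16 fell under siYAP (median -0.99) and 15 of 16 under siTAZ (median -0.78), and 0 rose. KIF23, a kinesin of cytokinesis, fell by 1.06 ± 0.16 under siYAP (adjusted p = 0.00157). In A549 0 of the 16 were called, with medians of -0.30 and -0.25, but only 0.00625% of all A549 genes were called in each knockdown. The line difference in effect, without a block, was called for 0 of the 16 with either siRNA. There 0.0822% (siYAP) and 0.379% (siTAZ) of genes were called. Of the 15 ATF4 and CHOP genes, 3 fell under siYAP in H1299, among them ATF3 by 1.44 ± 0.30 (adjusted p = 0.00706), and 7 fell under siTAZ, among them PHGDH by 0.74 ± 0.12 (adjusted p = 0.00131). Of 18 regulators of p53, 1 rose and 3 fell under siYAP, and 1 rose and 1 fell under siTAZ, near or below the 16.6% and 23.3% of all genes called in either direction; the 3 of 15 above is near its share too. TP53BP1, a p53-binding repair protein, rose by 0.36 ± 0.09 (adjusted p = 0.0174) and 0.52 ± 0.09 (adjusted p = 0.00216).

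Most members differed more between the replicates of A549 than between its siRNA groups. In all 3 A549 groups, 7 of the 9 transcripts (MDM2, SESN1, ZMAT3, RRM2B, TP53INP1, TP53I3 and GADD45A) were highest in replicate 3, against 23.7% of genes. ZMAT3 stood at 31.9, 38.2 and 65.5 CPM under siControl, at 35.3, 46.3 and 64.6 CPM under siYAP and at 35.3, 43.2 and 70.3 CPM under siTAZ, so that replicate 3 was 1.58 to 1.87 times the mean of the other replicates of its group. That ratio was 1.45 to 1.65 for GADD45A, 1.45 to 1.49 for TP53I3, 1.41 to 1.48 for MDM2 and 1.31 to 1.54 for TP53INP1. It was 1.20 to 1.37 for RRM2B and 1.19 to 1.29 for SESN1. FDXR (0.94 to 1.01) and GDF15 (0.77 to 0.98) did not share the pattern.

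Other genes of the pathway had it as well. CDKN1A in A549 stood at 331, 389 and 777 CPM under siControl, 298, 345 and 756 CPM under siYAP and 341, 401 and 831 CPM under siTAZ, a ratio of 2.16 to 2.35. Of the 34 other p53 targets, 21 were highest and 0 were lowest in replicate 3 in all 3 groups, and 16 of the 16 cell-cycle genes were lowest in it, against 21.4% of genes. In H1299, where 4.53% of genes were highest in replicate 3 in all groups, this held for 1 of the 9 (TP53I3) and for 1 of the 34. Lowest there were 1 of the 9 (ZMAT3), 2 of the 34 and 0 of the 16 cell-cycle genes, against 5.36% of genes. The 2 were CDKN1A, at a ratio of 0.76 to 0.85, and ZNF79. Of the 15 ATF4 and CHOP genes, 5 were lowest and 1 was highest in replicate 3 of all H1299 groups. In A549, 5 of these 15 were lowest and 3 highest. The number stands for a library's place in the submitters' titles. Libraries of the same number also share a prefix in the submitters' descriptions, IQ, IY or IZ in A549 and A, B or C in H1299. The deposited A549 values include a batch-adjusted set, headed combat, and the H1299 ones do not. What the prefixes stand for is not given in the sources used here, so the part of the replicate number in this pattern was not tested.

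**Figure D4:**
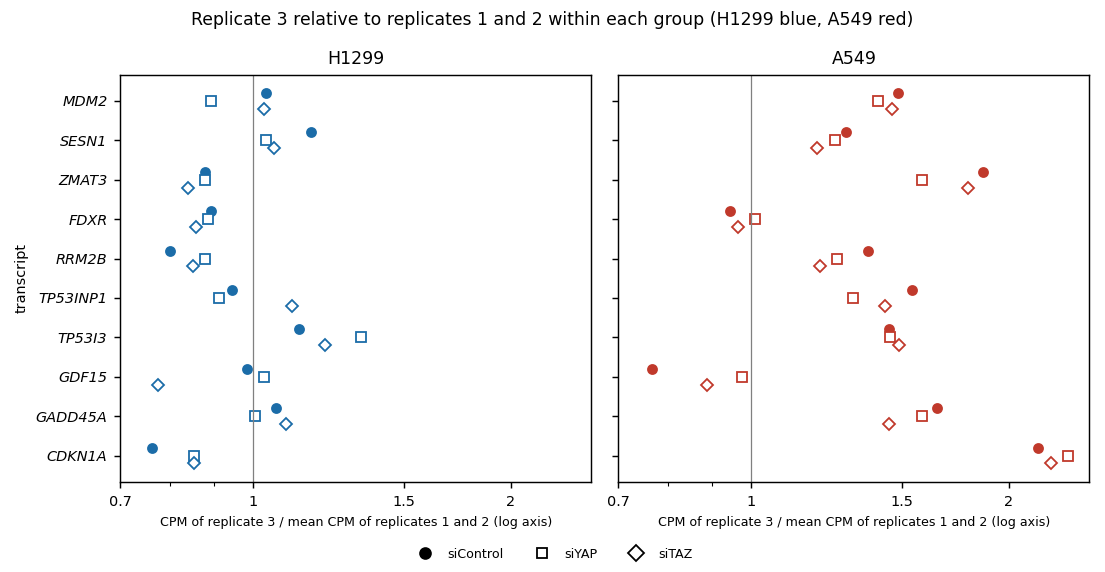
CPM of replicate 3 divided by the mean CPM of replicates 1 and 2 (log axis) for each transcript and CDKN1A, with 1 point per siRNA group in H1299 (left, blue) and A549 (right, red). In A549 the 7 transcripts and CDKN1A lie to the right of 1 in every group, from 1.19 for SESN1 to 2.35 for CDKN1A, while FDXR and GDF15 lie near or below 1.

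The members varied together more closely in A549 than in H1299. Over the 9 libraries of A549 the median Pearson correlation of log2 CPM among the 36 pairs was 0.87, from -0.47 to 0.98, with 26 pairs positive; in H1299 the median was 0.19, from -0.72 to 0.79, with 23 pairs positive. These are descriptions over 9 libraries that share siRNA groups and replicate numbers. The 21 A549 pairs that involve neither FDXR nor GDF15 all lay between 0.78 and 0.98, and in H1299 the same pairs ran from -0.72 to 0.77. TP53I3 and GADD45A, for example, were at 0.91 in A549 and at -0.71 in H1299. FDXR or GDF15 with any of the other 7 gave -0.47 to 0.29 in A549. Those other 7 are the members described above as highest in the same replicate of every A549 group. The high values of their 21 pairs therefore restate that pattern and are not a separate result. No correlations among other genes are given, so whether the members varied together more closely than A549 genes in general was not tested.

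The protein-coding genes whose pattern was most like the mean of the 9 over all 18 libraries, after centring each gene within its line, were DYNLT3 (r = 0.94), LYRM1 (r = 0.93), MEX3D (r = 0.93), WSB2 (r = 0.93) and TFDP2 (r = 0.91). Over the 12715 genes compared the median r was 0.04 and the 95th percentile was 0.65. DYNLT3, a dynein light chain, stood at a mean of 66.3 CPM in H1299 siControl, 35.6 CPM in H1299 siYAP and 69.7 CPM in H1299 siTAZ, and at 48.4, 48.6 and 51.2 CPM in the corresponding A549 groups. Centring removes the difference between the lines, so the likeness covers variation within lines only.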

How the data were processed

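Poly(A) RNA-seq libraries numbered 18. Per the submitters' processing notes the tools were cutadapt, STAR 2.4.2a and DESeq2 and the build was GRCh38. Which counting tool, annotation and strand setting were applied is not stated. Raw counts for each gene symbol were deposited by the authors, 1 table per line. The deposited normalized counts (signal), log2 values, log2 fold changes and p-values stand beside them. Those log2 values are batch-adjusted for A549 and regularized for H1299. Of all these, only the authors' fold changes and adjusted p-values were read. Every listed gene reaches 6 or more counts in at least 1 library.

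Counts were filtered with filterByExpr by group, scaled by TMM and tested with edgeR 4.0.16 (quasi-likelihood F test, R 4.3.3), per line over 9 libraries (15775 and 16008 genes) and jointly over 18 libraries (15816 genes in both tables). Knockdown values come from the fits per line, and line differences and interactions from the joint fit. All levels are on the joint scale. The labels do not say that replicates are separate cultures, so the p-values reflect library-to-library spread that could be technical. Replicates were no copies of each other (chi-square per degree of freedom 5.97 to 27.5).

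Replicate numbers come from the sample titles. Deviations from group means correlated between all same-numbered libraries of a line, at 0.11 to 0.38 in H1299 and 0.38 to 0.73 in A549. Differently numbered libraries were at -0.32 to 0.16 in H1299, which overlaps, and at -0.55 to 0.28 in A549, which does not, so the pairing is weaker in H1299. The numbers were taken to pair the libraries within a line and not across lines. The fit with the number as a block is given where it changes a call. Alternatives were the block, DESeq2 1.42.0, RLE scaling, plain library size, scaling to 80 genes picked by ribosomal protein symbol (joint fit), no filter, and leaving out each library or each number. The fits were tested on simulated data. Symbols were matched to GENCODE release 29 (97.8% of 22219).

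The members and the gene lists were chosen with earlier results of these data known, and so was the rule for named genes: every member, YAP1 and WWTR1, CDKN1A, BAX, BBC3 and PMAIP1, for each list up to 2 called genes per direction with the smallest adjusted p, and the 5 genes most like the members' mean. Genes named beyond the rule (CCNG1 and those not listed in H1299) were chosen after their values were seen. A further gene of the rule is not reported here.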

Additional observations from a re-analysis of the deposited data

How the results depend on the processing

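Over the 99 member results, 2045 of 2133 alternative values kept their side of the threshold, 57 lost a call, 31 gained one and 0 called values changed sign; 111 uncalled values did. RLE scaling changed no member call. With the replicate number as a block, the members called rose from 2 to 4 for siYAP against siTAZ in H1299, from 0 to 1 for siTAZ and from 0 to 1 for siYAP against siTAZ in A549, and from 0 to 3 (siYAP) and 0 to 4 (siTAZ) for the line difference in effect; apart from these, the block moved the calls of RRM2B under siTAZ and of GADD45A between lines, as given above, and no other. Without a filter on low counts siYAP against siTAZ in H1299 had 1 call, GDF15 being at -0.88 (adjusted p = 0.0568), and with DESeq2 GDF15 was at -0.90 (adjusted p = 0.121) and FDXR at -0.46 (adjusted p = 0.0340). Leaving out a library or a number, the members called ranged over 0 to 4 (siYAP), 0 to 4 (siTAZ) and 0 to 3 (siYAP against siTAZ) in H1299, where all genes called ranged over 34 to 4430, 144 to 5267 and 190 to 2945. The highest counts for siYAP and for siTAZ came without replicate 2 of every group, where MDM2 was called at -0.30 (adjusted p = 0.0248) under siYAP and -0.28 (adjusted p = 0.0311) under siTAZ, and leaving out number 1 or number 3 of every group left 0 in all 3 H1299 comparisons. Replicate 2 was also the library with the most targeted transcript left in each H1299 knockdown group, as given above. The ranges were 0 in A549 and in both line differences in effect, and 8 to 9 between the lines. Genes called in all under the block were 4461 (siYAP; 2625 without), 5606 (siTAZ; 3680 without) and 3399 (siYAP against siTAZ; 1846 without) in H1299, 909, 2134 and 1127 in A549 (1, 1 and 2 without), and 1712 and 2797 for the line difference in effect (13 and 60 without, 0 and 9 with ribosomal scaling, 16 and 101 with plain library size). With plain library size the H1299 split was 1487 higher and 1087 lower for siYAP (1244 and 1381 with TMM), 2330 and 1365 for siTAZ (1717 and 1963) and 687 and 1088 between them (883 and 963). Between the lines, the median of all genes under siYAP and siTAZ was -0.27 and -0.31 with plain library size (4594 higher and 7288 lower, 4381 and 7515) and -0.54 and -0.69 with ribosomal scaling (3192 and 8359, 2666 and 9210), against 5903 and 5919, 5886 and 5890 with TMM. The cause of these changes was not tested. Depth limits GDF15 in H1299, which had 12 to 25 reads per library.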
